A study of Mus musculus with 4 samples.

Results

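9 chemokine receptor genes, Ccr1, Ccr2, Ccr7, Ccr9, Cxcr3, Cxcr4, Cxcr5, Cxcr6 and Cx3cr1, were followed through the immune cells of the mouse brain and dura mater. They were chosen by name out of 19491 listed genes, and each was read in every immune class of every library, with a gene that a file did not list counted as 0. All 9 were listed in all 4 libraries. The cells were sorted as CD45+, the pan-leukocyte surface protein encoded by Ptprc, from C57BL/6J mice of 8 weeks, and the 4 libraries held brain or dura mater cells taken on day 3 after photothrombotic injury (INJ) or from controls (CT). Photothrombotic injury closes vessels under the skull with light and a photosensitising dye. The label CT is not spelled out, and the controls that the study describes at this time were sham operated. Each group was 1 library, and the number of mice behind it is not given in the sources used here, so no test between groups was possible. The values below carry 95% exact Poisson or binomial intervals, which cover counting error only.

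Chemokine receptors are G protein-coupled receptors that steer leukocytes along gradients of small secreted chemokines. Ccr2 lets monocytes leave the marrow toward Ccl2 and Ccl7, Ccr7 takes dendritic cells and lymphocytes to lymphoid tissue, and Cxcr5 guides B cells into follicles. Cxcr4, the receptor of Cxcl12, holds leukocytes in the marrow and in tissue, while Cx3cr1 binds the membrane-bound chemokine Cx3cl1 and is a classical receptor of microglia. Ccr1 answers inflammatory ligands such as Ccl3, Ccl5, Ccl6 and Ccl9, Cxcr3 binds Cxcl9 and Cxcl10, Cxcr6 binds Cxcl16, and Ccr9 binds Ccl25.

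18969 barcodes were deposited, 14103 passed the filters, and 11295 of these fell into 20 classes by marker genes that held none of the 9 receptors. Kept cells had a median of 8251 to 14271 unique molecular identifiers (UMIs, counted mRNA molecules) per library, the INJ libraries being the deeper ones, and any pair of libraries shared 3 to 11 barcodes. A Ptprc UMI was found in 91.8 to 95.5% of kept cells of a library, although the source name of the brain samples reads CD45-+. The classes are cut from a score per cell, so they are ranges, and 993 kept cells lay within 0.1 of the margin that separates the best class from the next. Class names end in "-like" for this reason, and levels are given as CPM, the UMIs of a gene per 1000000 UMIs of the class, a scale on which genes are not compared with each other because transcript capture differs between them. A class entered a comparison with at least 20 cells in each library, which gave 63 groups of class and library. Microglia-like cells were measured in the brain only, infiltrating macrophage-like cells only in the INJ brain (895 cells) and B precursor-like cells only in the dura.

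4 of the genes, Ccr9, Cxcr6, Ccr1 and Ccr2, lie within 435 kb of chromosome 9 in GRCm38, the build of mm10, yet they peaked in different classes. Cxcr5 and Cx3cr1 lie elsewhere on chromosome 9, Cxcr4 on chromosome 1, Ccr7 on chromosome 11 and Cxcr3 on chromosome X. The promoters of Ccr1 (chr9:123968643-123968942, minus strand) and Ccr2 (chr9:124101933-124102232, plus strand) are shown because these neighbouring genes are followed most closely in the myeloid classes below. They span 250 bases before to 50 after the annotated start, from RefSeq on GRCm38.p6, and capitals mark GAGGAA or its reverse complement TTCCTC, the core recognised by the myeloid and B cell factor PU.1.
Ccr1: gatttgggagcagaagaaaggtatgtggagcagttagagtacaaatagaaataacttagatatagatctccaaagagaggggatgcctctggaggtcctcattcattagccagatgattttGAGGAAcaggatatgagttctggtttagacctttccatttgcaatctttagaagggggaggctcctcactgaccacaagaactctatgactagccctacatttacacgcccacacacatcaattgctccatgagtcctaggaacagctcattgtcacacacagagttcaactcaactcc
Ccr2: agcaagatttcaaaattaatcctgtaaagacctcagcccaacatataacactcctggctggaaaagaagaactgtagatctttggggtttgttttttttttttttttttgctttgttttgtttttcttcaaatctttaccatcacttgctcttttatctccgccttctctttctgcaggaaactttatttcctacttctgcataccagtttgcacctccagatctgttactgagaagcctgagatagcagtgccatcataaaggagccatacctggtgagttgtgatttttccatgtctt
The motif stood in 2 of the 7 receptor promoters found in the table, those of Ccr1 and Cxcr3, and in 28.3% of all 32851 promoters of this length. No promoter of Ccr7 or Cxcr5 was found there.

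**Figure D1:**
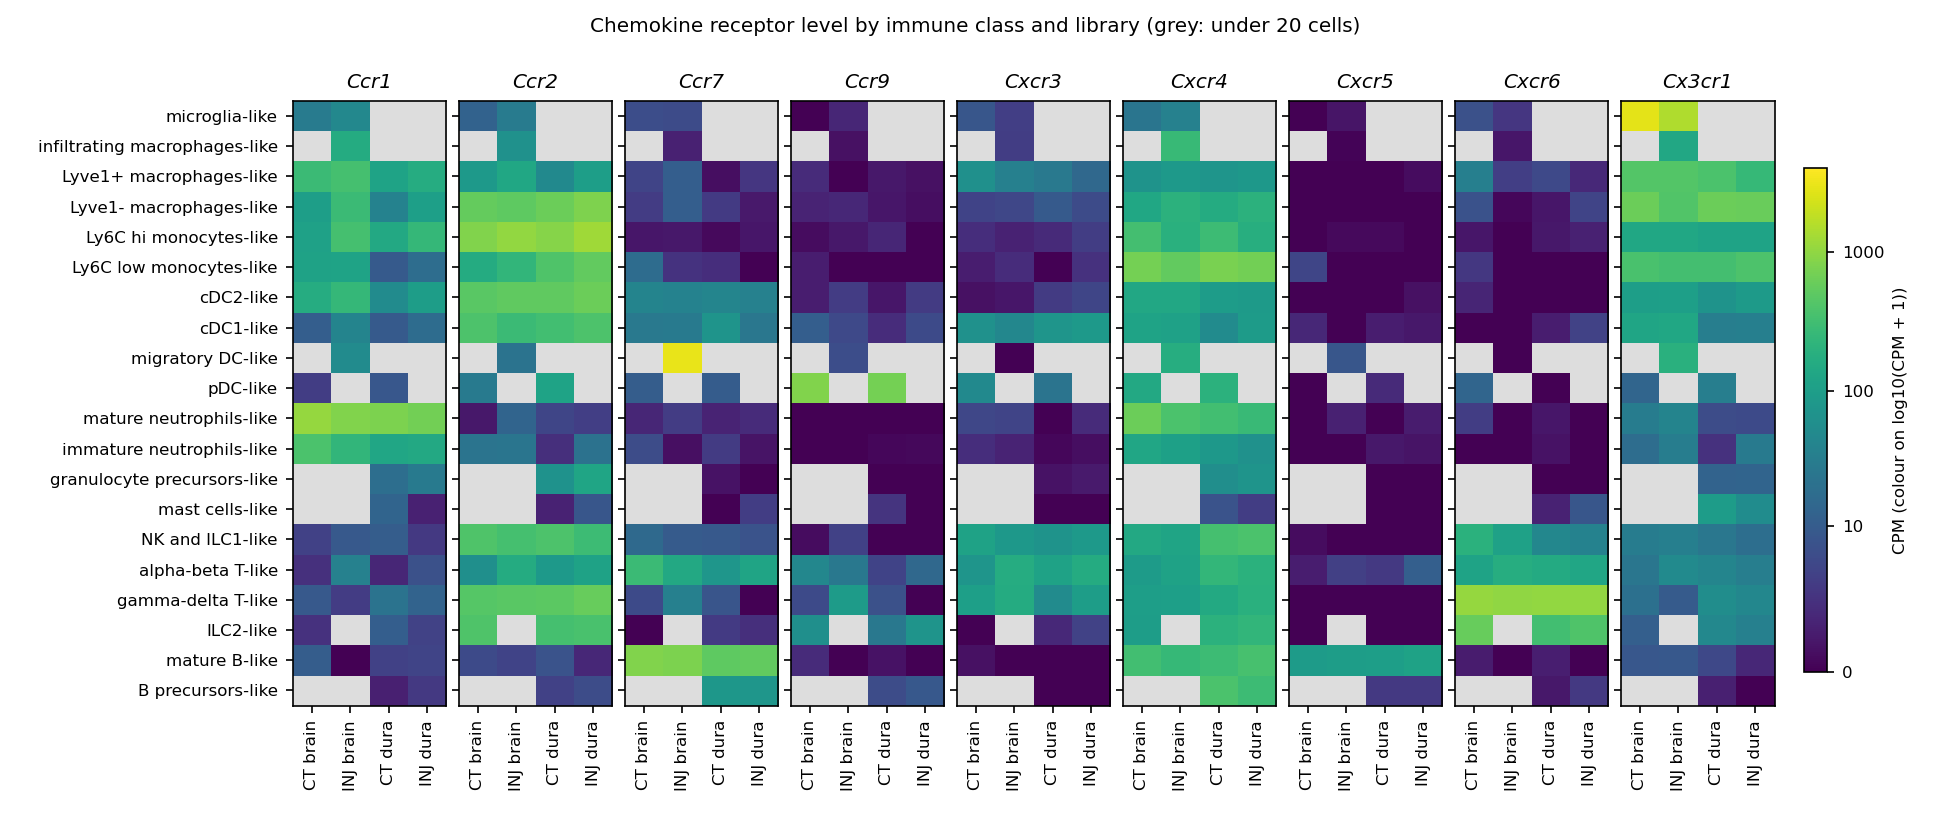
Level of each receptor (CPM, colour on a log10(CPM + 1) scale) in each class (rows) and library (columns), with grey for groups under 20 cells. Ccr9, Cxcr5 and Cxcr6 light up in few classes, whereas Cxcr4 is present in nearly every row.

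The receptors differed in the immune classes where they were highest, and Cxcr4 was spread over most classes. Pooled over the libraries with at least 20 cells of the class, Ccr1 was highest in mature neutrophil-like cells (843 CPM), Ccr2 in Ly6C hi monocyte-like cells (1005 CPM), Ccr7 in migratory DC-like cells (3067 CPM, INJ brain), Ccr9 in pDC-like cells (743 CPM), Cxcr4 in Ly6C low monocyte-like cells (623 CPM), Cxcr5 in mature B-like cells (100.5 CPM), Cxcr6 in gamma-delta T-like cells (1044 CPM) and Cx3cr1 in microglia-like cells (1957 CPM). Cxcr3 had no single leading class. It was 100.3 CPM in NK and ILC1-like cells, 96.4 CPM in alpha-beta T-like cells and 94.8 CPM in gamma-delta T-like cells. Of the 20 classes, 14 were above 100 CPM for Cxcr4 and 1 each for Ccr9, Cxcr3 and Cxcr5. These orders are a description, with no test.

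Over all kept cells of a library, levels and the number of cells of each class both differed between libraries. Ccr7 was 112 CPM in the CT brain and 35.2 CPM in the INJ brain, where mature B-like cells were 11.9 and 1.37% of kept cells and alpha-beta T-like cells 14.3 and 2.55%. Ccr1 was 134 CPM in the CT brain and 194 CPM in the INJ brain, and 26.0% of its INJ UMIs came from infiltrating macrophage-like cells, as did 39.5% of the Cxcr4 UMIs. The comparisons below were made within a class.

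Ccr2 was detected in nearly every Ly6C hi monocyte-like cell. Its level in Ly6C hi monocyte-like cells, the classical monocytes recruited from blood, was 839 CPM in the CT brain, 1033 CPM in the INJ brain, 879 CPM in the CT dura and 1208 CPM in the INJ dura. Between 99.2 and 99.6% of these cells held a Ccr2 UMI in each library. After each cell was thinned to 2000 UMIs, the share was 75.0% in the CT brain, 82.6% in the INJ brain, 79.3% in the CT dura and 87.9% in the INJ dura. The level was thus higher in the INJ library of both tissues, by less than 2-fold. Mature B-like cells, which should lack Ccr2 and serve as a measure of free RNA, had 1.5 to 7.47 CPM of Ccr2 and a UMI in 0.885 to 4.39% of cells, at a median depth of 3437 to 5404 UMIs against 14205 to 18190 in the monocytes.

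Infiltrating macrophage-like cells, defined by Arg1, Gpnmb, Spp1 and other genes of tissue-entering macrophages, held far less Ccr2 than the monocytes of the same library. Their level was 64.6 CPM against 1033 CPM, a 16.0-fold difference (log2 ratio −4.00, 95% interval −4.09 to −3.91), and 38.4% of the 895 cells had a Ccr2 UMI (95% interval 35.2 to 41.7%). Thinned to 2000 UMIs the shares were 12.51% against 82.6%. Ccr1 was also lower, 164 against 340 CPM (log2 ratio −1.05, −1.14 to −0.96), while Cxcr4 was higher, 263 against 189 CPM (0.48, 0.37 to 0.59). For Cx3cr1 the levels were 144 and 140 CPM, and the interval of the log2 ratio, −0.09 to 0.17, held 0. The 8 marker genes of Ly6C hi monocytes together reached 12.6% of their own-class level in the infiltrating class, all 8 being detected.

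Ly6C low monocyte-like cells, the patrolling monocytes of blood vessels, had more Cx3cr1 and less Ccr2 than Ly6C hi monocyte-like cells. Their Ccr2 was 164 CPM in the CT brain, 237 in the INJ brain, 405 in the CT dura and 536 in the INJ dura. Cx3cr1 in the Ly6C low class was 362 CPM in the CT brain, 329 in the INJ brain, 338 in the CT dura and 393 in the INJ dura. It was 121 to 141 CPM in Ly6C hi monocyte-like cells. Cx3cr1 was therefore higher in the Ly6C low class in each of the 4 libraries, with log2 ratios of 1.24 to 1.70, and Ccr2 was lower, with log2 ratios of −2.36 to −1.12. Cxcr4 was higher in the Ly6C low class as well, with log2 ratios of 1.08 in the CT brain, 1.51 in the INJ brain, 1.35 in the CT dura and 1.91 in the INJ dura. None of the intervals of these 12 ratios held 0.

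**Figure D2:**
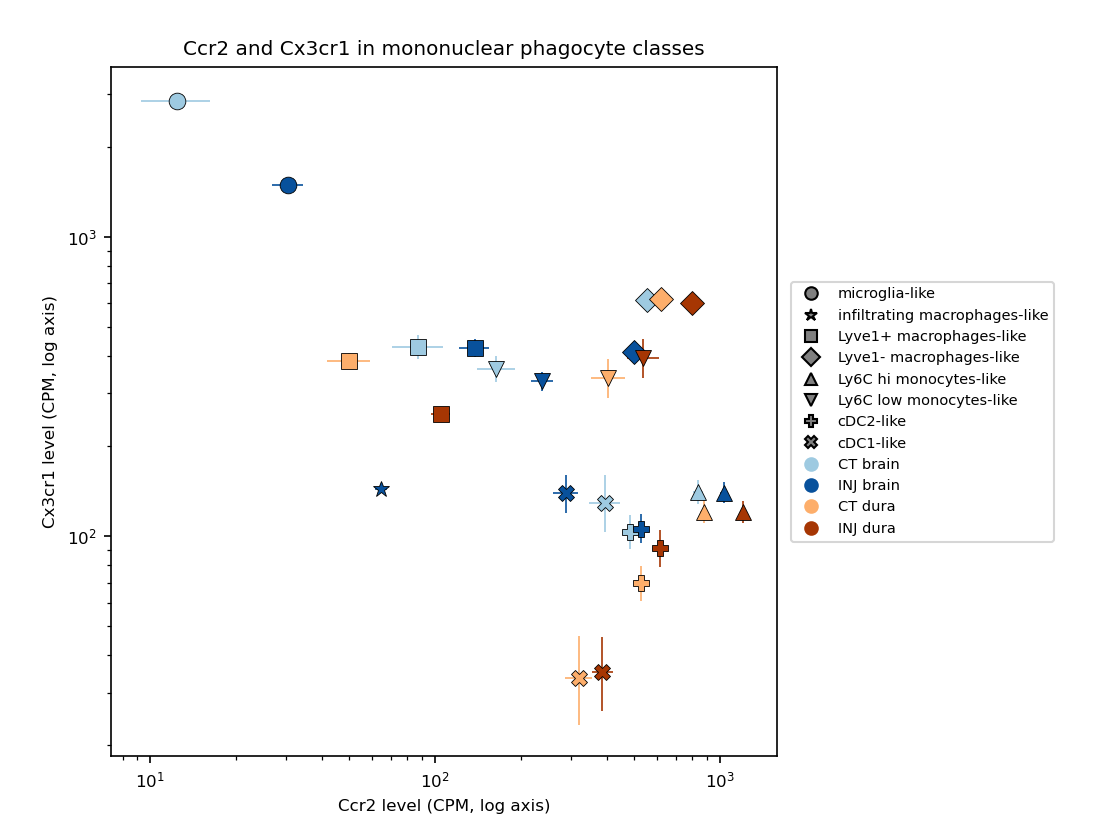
Ccr2 against Cx3cr1 (CPM, both axes log) in mononuclear phagocyte classes; marker shape gives the class, colour the library and bars the 95% exact Poisson intervals. Microglia-like cells lie at the top left, Ly6C hi monocyte-like cells at the lower right with 839 to 1208 CPM of Ccr2, and Lyve1- macrophage-like cells are high for both genes.

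Tissue macrophages differed in the same pair of genes. Lyve1- macrophage-like cells, which carry MHC class II genes, had both receptors, with 501 to 796 CPM of Ccr2 and 414 to 621 CPM of Cx3cr1, and between 73.6 and 78.9% of them held UMIs of both. Lyve1+ macrophage-like cells, the perivascular and meningeal type marked by Lyve1 and Cd163, had 49.9 to 138 CPM of Ccr2 and 256 to 428 CPM of Cx3cr1, with both detected in 11.5 to 17.1% of cells. Cxcr3, a receptor best known from T cells, was found in 45 of 98 Lyve1+ macrophage-like cells of the CT brain (63.5 CPM), 49 of 173 of the INJ brain (36.3 CPM), 60 of 217 of the CT dura (27.5 CPM) and 82 of 422 of the INJ dura (15.6 CPM). The level in mature B-like cells was at most 0.446 CPM. Of the gamma-delta T list, 4 to 7 of 8 genes were detected in the same Lyve1+ groups, at 0.119 to 0.891% of their own-class level.

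Microglia-like cells, the resident macrophages of brain tissue, held Cx3cr1 UMIs in all 394 cells of the CT brain and in 536 of 539 cells of the INJ brain. Its level differed by less than 2-fold between the libraries, at 2852 CPM in CT and 1495 CPM in INJ (log2 ratio −0.93, 95% interval −0.97 to −0.90). Ccr2 was low in both, 12.4 CPM in CT and 30.4 CPM in INJ, and its log2 ratio was 1.29 (0.86 to 1.75), which came under 2-fold with no filter on cells (0.58) and with clusters in place of gates (0.64). The summed level of the 8 infiltrating macrophage markers in microglia-like cells was also higher in INJ, 864 against 2888 CPM, as was that of the 8 Ly6C hi monocyte markers, 62.8 against 283 CPM, with all genes detected. Their part in the Ccr2 value was not tested.

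Among dendritic cells, Ccr7 marked the migratory state. Migratory DC-like cells, named by Fscn1, Il4i1 and other genes of dendritic cells on the way to lymph nodes, numbered 37 in the INJ brain, and all 37 held Ccr7 UMIs. The level was 3067 CPM there, against 38.5 CPM in cDC2-like cells of the same library (log2 ratio 6.32, 95% interval 6.04 to 6.60). In the other libraries the class had 8 to 16 cells, under the minimum of 20, and its Ccr7 level was 2248 CPM in the CT brain, 4871 CPM in the CT dura and 3786 CPM in the INJ dura. Migratory DC-like cells made up 0.22 to 0.83% of kept cells and held 7.21% of all Ccr7 UMIs in the CT brain, 58.9% in the INJ brain, 35.8% in the CT dura and 54.4% in the INJ dura. Mature neutrophil-like cells, which should lack Ccr7, had 1.32 to 3.42 CPM of it. Ccr2 went the other way, at 22.5 CPM in migratory DC-like and 526 CPM in cDC2-like cells of the INJ brain (log2 ratio −4.55, −5.56 to −3.71).

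Ccr9 was carried by pDC-like cells, the plasmacytoid dendritic cells known for type I interferon, which numbered 17 to 40 in each library. Their level was 840 CPM in the CT brain, 1048 CPM in the INJ brain, 696 CPM in the CT dura and 722 CPM in the INJ dura, where the 2 INJ groups had fewer than 20 cells. A Ccr9 UMI was present in 18 of 20, 18 of 19, 35 of 40 and 13 of 17 cells in that order. Mature neutrophil-like cells had no Ccr9 UMI in any library, which allows up to 1.98 to 3.42 CPM (3 counts per library). ILC2-like cells, innate lymphocytes of the type 2 response, came next with 60.9 CPM in the CT brain, 26.5 CPM in the CT dura and 72.0 CPM in the INJ dura.

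Granulocytes separated the receptors by stage. Ccr1 was lowest in granulocyte precursor-like cells (19.1 CPM in the CT dura and 28.9 CPM in the INJ dura), higher in immature neutrophil-like cells (132 and 147 CPM) and highest in mature neutrophil-like cells (780 and 671 CPM). In the brain it was 383 CPM in immature and 1060 CPM in mature cells of CT, and 235 and 820 CPM of INJ. Cxcr4 was also higher in mature than in immature cells in each library, with log2 ratios of 2.20 in the CT brain, 1.79 in the INJ brain, 1.97 in the CT dura and 2.05 in the INJ dura. None of the intervals of these 4 Cxcr4 ratios held 0. Ccr2 was at 66.4 and 130 CPM in the precursors of the CT and INJ dura, at 2.05 and 21.6 CPM in immature cells and at 4.61 and 3.61 CPM in mature cells. In the precursors it lay in a minority of cells, 21 of 68 in the CT and 11 of 35 in the INJ dura. UMIs of both Ccr2 and Cx3cr1 were held by 11.8 and 17.1% of them, and whether such cells form a separate subset was not tested. Thus mature cells had more Ccr1 and Cxcr4 than immature ones in each library. The precursor class as a whole had more Ccr2 than either neutrophil class in both dura libraries. Mature neutrophil-like cells were shallow, with a median of 3883 to 7051 UMIs.

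**Figure D3:**
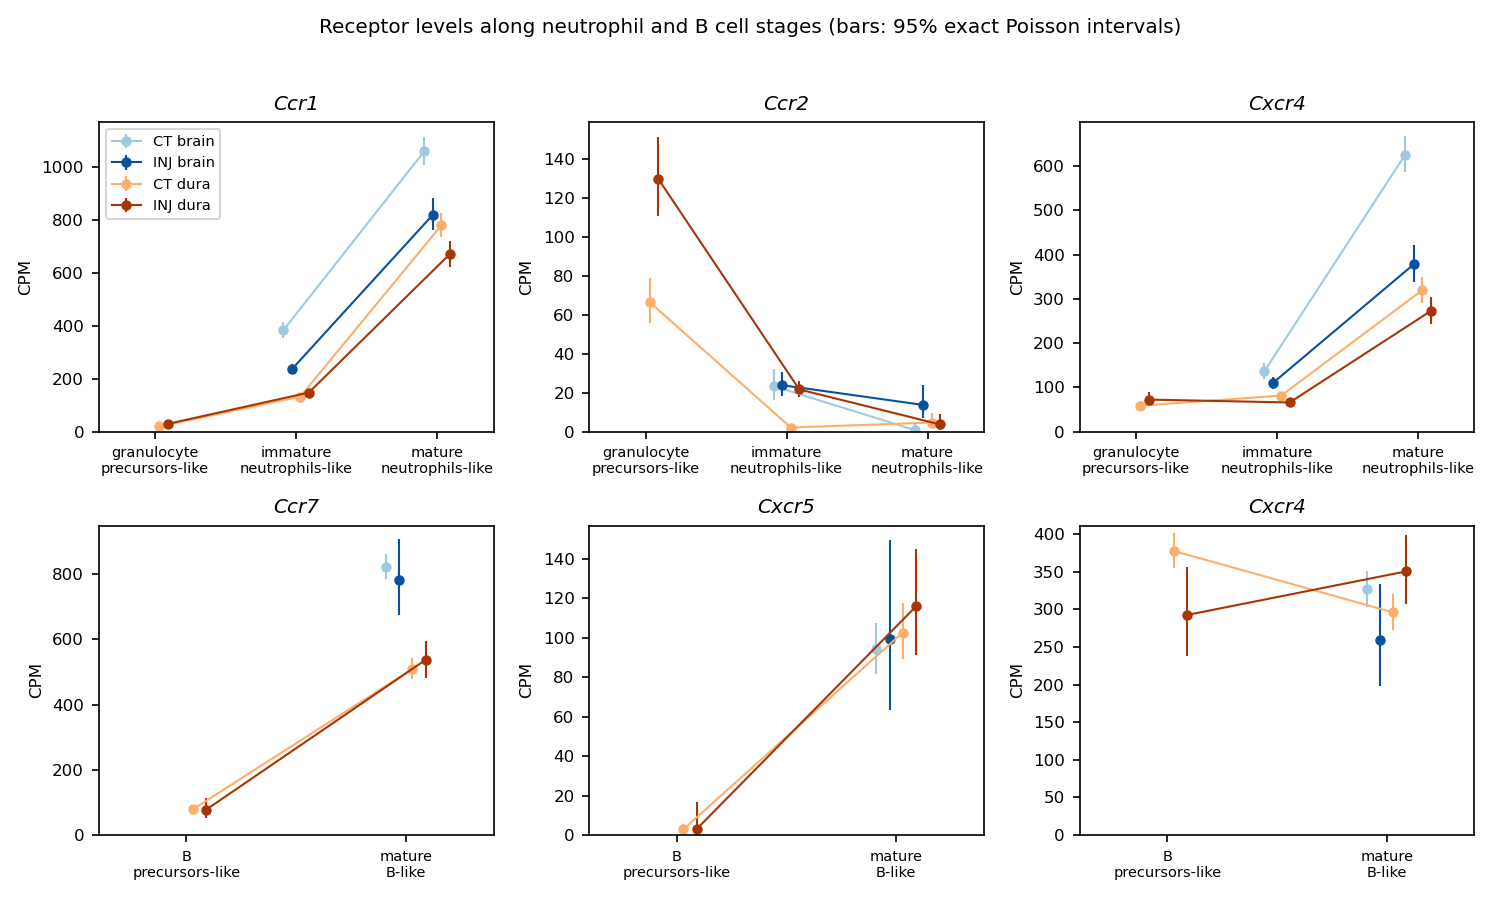
CPM of receptors by stage, granulocytes above and B cells below, one line per library with 95% exact Poisson intervals. Ccr1 and Cxcr4 are highest in mature neutrophil-like cells and Ccr7 and Cxcr5 in mature B-like cells, whereas Cxcr4 stays between 260 and 378 CPM in both B cell stages.

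B cells gave another stage series. Cxcr5 was 103 CPM in mature B-like and 2.92 CPM in B precursor-like cells of the CT dura (log2 ratio 5.14, 95% interval 4.13 to 6.37), and 116 and 2.99 CPM in the INJ dura. Ccr7 was 509 against 79.2 CPM in the CT dura (2.69, 2.47 to 2.90) and 537 against 77.6 CPM in the INJ dura (2.79, 2.22 to 3.43). Cxcr4 did not show this order in both libraries, with 296 CPM in mature and 378 CPM in precursor cells of the CT dura and 351 and 293 CPM in the INJ dura. Mature B-like cells of the brain, where no precursor group existed, had 823 CPM of Ccr7 in CT and 784 CPM in INJ. For Cxcr5 they had 94.1 CPM in the CT and 99.6 CPM in the INJ brain.

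Lymphocytes outside the B lineage held Ccr2 and Cxcr6 at different levels, while Cxcr3 was nearly absent from ILC2-like cells. Cxcr6, found on tissue-resident lymphocytes, was 1058 CPM in the CT brain, 992 CPM in the INJ brain, 1039 CPM in the CT dura and 1051 CPM in the INJ dura for gamma-delta T-like cells, with a UMI in 150 of 157, 43 of 47, 114 of 119 and 91 of 95 cells. The intervals of the 4 levels overlapped. In ILC2-like cells the level was 575 CPM in the CT brain, 326 CPM in the CT dura and 406 CPM in the INJ dura. Cxcr3 was at most 4.17 CPM in ILC2-like cells, while gamma-delta T-like cells had 53.5 to 162 CPM.

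Ccr2, chiefly known as a monocyte receptor, was also high in innate-like lymphocytes. It was 449 CPM in the CT brain, 473 CPM in the INJ brain, 493 CPM in the CT dura and 573 CPM in the INJ dura for gamma-delta T-like cells, with a UMI in 76.6 to 91.6% of cells. NK and ILC1-like cells had 409, 342, 391 and 290 CPM in that order, and ILC2-like cells 406 CPM in the CT brain, 345 CPM in the CT dura and 363 CPM in the INJ dura. Alpha-beta T-like cells were lower, at 61.9 to 161 CPM.

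**Figure D4:**
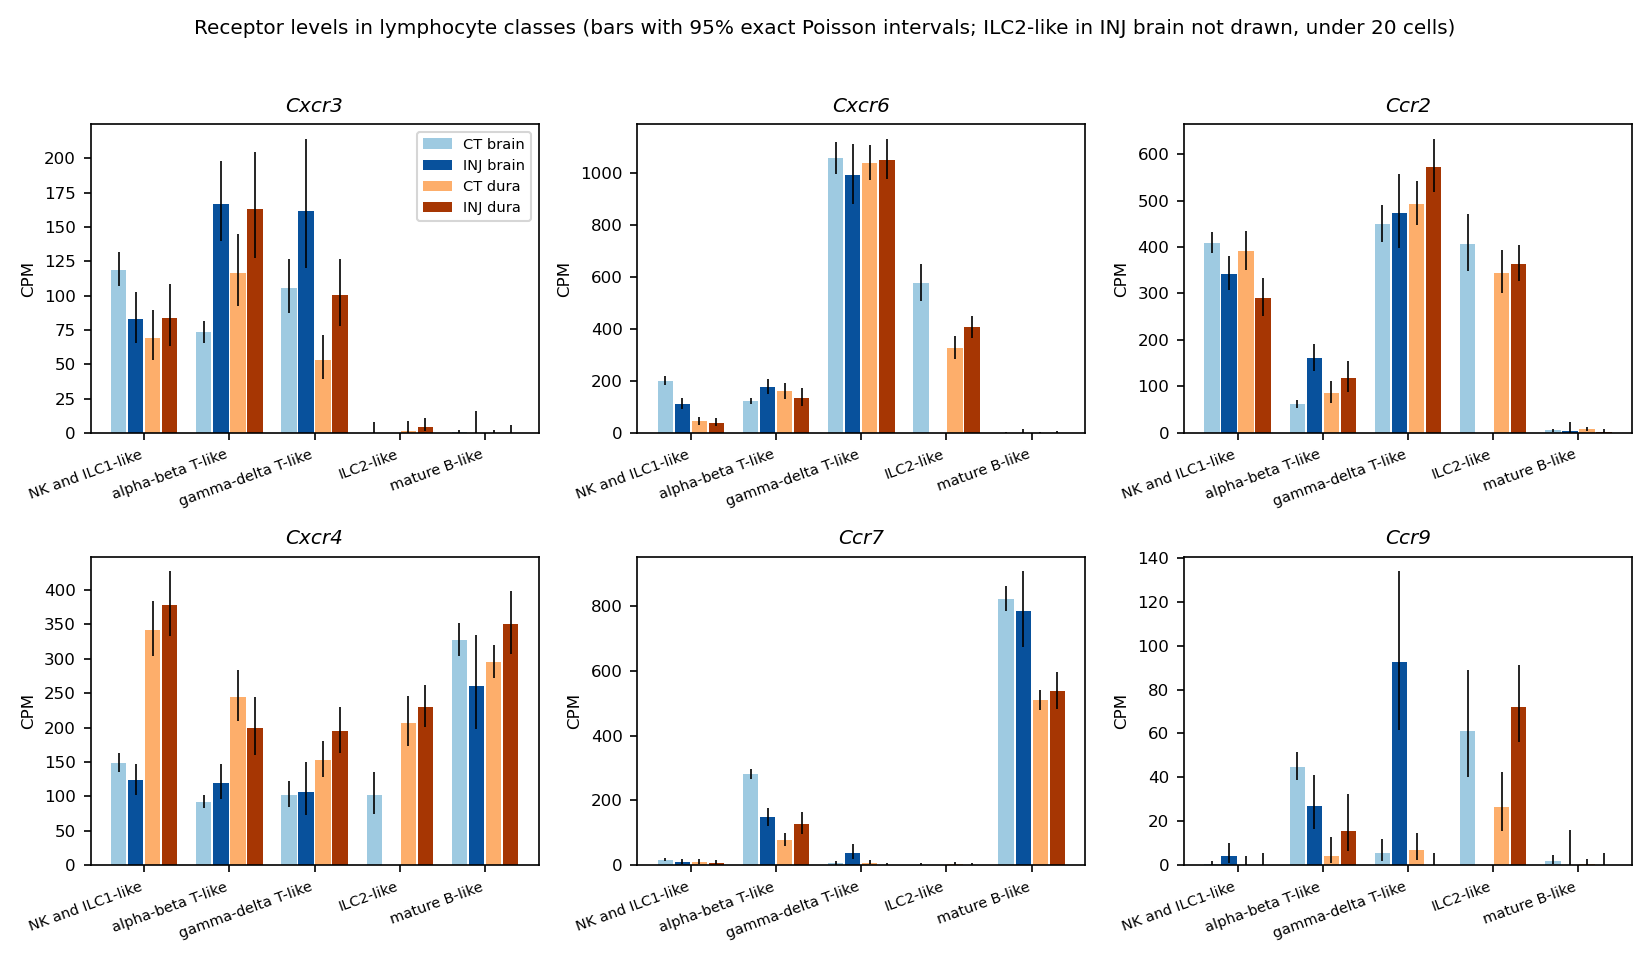
CPM of 6 receptors in lymphocyte classes, one bar per library with 95% exact Poisson intervals. Cxcr6 is level at 992 to 1058 CPM in gamma-delta T-like cells, and the brain bars of Cxcr4 lie below the dura bars in NK and ILC1-like, alpha-beta T-like, gamma-delta T-like and ILC2-like cells.

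INJ was set against CT in each tissue to ask how receptor levels within a class differed on day 3 after injury. A receptor in a class was compared where both libraries together held at least 20 of its UMIs, and was counted when the levels differed 2-fold or more. In the brain 73 pairs of receptor and class could be compared in 13 classes: 12 were higher in INJ, or 16.4% against 4.6% over all genes and classes, and 5 were lower, or 6.85% against 5.11%. In the dura 70 pairs could be compared in 16 classes: 6 were higher, or 8.57% against 2.67% over all genes, and 3 were lower, or 4.29% against 3.56%. The median log2 ratio over all compared receptor pairs was 0.03 in the brain and 0.15 in the dura, beside −0.03 and −0.04 over all genes. Many of these pairs rested on few cells: in the library with the higher level, 5 of the 12 and 4 of the 5 brain pairs had a UMI in fewer than 10 cells, as did 0 of the 6 and 3 of the 3 dura pairs.

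Ccr1 made up 5 of the 12 higher pairs of the brain. Of the 5, those in NK and ILC1-like and in alpha-beta T-like cells each rested on 3 INJ cells, and their log2 ratios reversed to −0.28 and −0.63 with clusters in place of gates. In Ly6C hi monocyte-like cells it was 114 CPM in the CT brain and 340 CPM in the INJ brain (log2 ratio 1.57, 95% interval 1.40 to 1.74), with a UMI in 105 of 192 and 237 of 265 cells. The thinned shares were 17.2% and 45.7%. Mature B-like cells, which should lack Ccr1, had 10.7 CPM in the CT brain and none in the INJ brain, with a UMI in 3.47% of the CT cells. The INJ brain class had 61 cells against 432 in CT, so the lack of a UMI there does not show a level below that of CT. In the dura Ly6C hi monocyte-like cells had 149 CPM of Ccr1 in CT and 250 CPM in INJ, under 2-fold. The infiltrating macrophage list was 1325 CPM in CT and 2778 CPM in INJ in the brain monocytes, and its part in the Ccr1 value was not tested.

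Lyve1- macrophage-like cells had higher Ccr1 in both tissues. It was 102 CPM in the CT brain and 284 CPM in the INJ brain (log2 ratio 1.47, 95% interval 1.28 to 1.67), and 38.4 CPM in the CT dura and 105 CPM in the INJ dura (1.46, 1.05 to 1.88). The libraries from both tissues thus differed by nearly the same factor, from different starting levels. In the brain class the Ly6C hi monocyte list was 304 CPM in CT and 1272 CPM in INJ, and in the dura class 404 and 608 CPM, with 7 or 8 of its 8 genes detected. The infiltrating macrophage list was 655 and 2078 CPM in the CT and INJ brain and 476 and 546 CPM in the CT and INJ dura. The part of these lists was not tested. In cDC1-like cells Ccr1 was 10.8 and 41.5 CPM in the CT and INJ brain, in 2 of 28 and 15 of 58 cells (log2 ratio 1.95, 0.81 to 3.33). The microglia list was 652 CPM in CT and 1280 CPM in INJ in the same cells, and its part was not tested. The fourth class, NK and ILC1-like cells, rested on 12 and 9 Ccr1 UMIs.

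**Figure D5:**
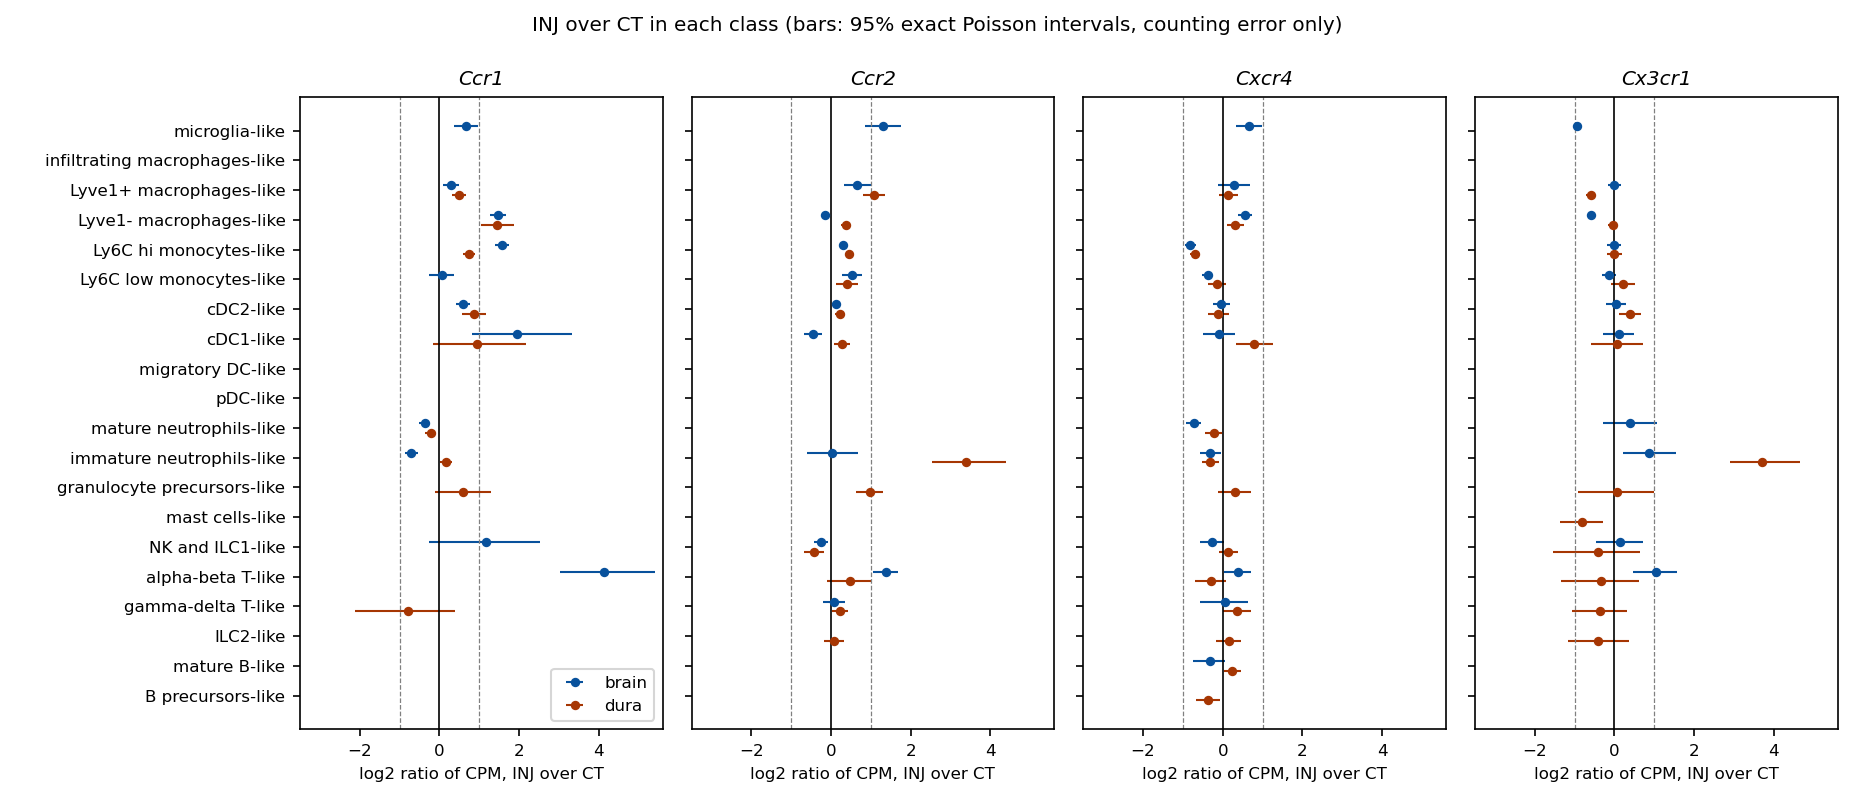
log2 ratio of CPM, INJ over CT, for 4 receptors in each class, brain in blue and dura in brown, with 95% exact Poisson intervals and dashed lines at 2-fold; pairs with 3 or fewer UMIs in either library are not drawn. Ccr1 lies right of 1 in brain Ly6C hi monocyte-like cells and in Lyve1- macrophage-like cells of both tissues.

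Mature and immature neutrophil-like cells were not 2-fold higher for Ccr1. In immature cells it was 383 CPM in the CT and 235 CPM in the INJ brain (log2 ratio −0.70, 95% interval −0.87 to −0.53), and the largest share of this class in the CT brain lay in cluster 23, a cluster of mature neutrophil-like cells, against cluster 29 in the INJ brain. In mature cells it was 1060 and 820 CPM in the brain and 780 and 671 CPM in the dura, each under 2-fold. Cxcr4 was not 2-fold different between INJ and CT in any of the 13 brain and 15 dura classes where it could be compared. It was lower in the INJ library for Ly6C hi monocyte-like cells of both, at 332 and 189 CPM in the brain and 296 and 182 CPM in the dura.

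Alpha-beta T-like cells of the brain had 4 of the 12 higher pairs. Cxcr3, which draws effector T cells toward Cxcl9 and Cxcl10, was 73.2 CPM in CT and 167 CPM in INJ (log2 ratio 1.19, 95% interval 0.88 to 1.49), in 129 of 516 and 56 of 113 cells. Ccr2 was 61.9 and 161 CPM (1.38, 1.06 to 1.69), and 1 cell held 20.8% of the INJ UMIs. Ccr1 and Cx3cr1 rested on fewer cells still: the 29 Ccr1 UMIs of INJ came from 3 cells, and 1 cell held 40.0% of the 40 Cx3cr1 UMIs. The Lyve1- macrophage list was 1558 CPM in CT and 3555 CPM in INJ in these T cells, and its part was not tested. Ccr7, the receptor of naive and central memory T cells, was 281 CPM in CT and 148 CPM in INJ (−0.93, −1.22 to −0.65). The largest share of the class lay in a different cluster in each library, cluster 5 in the CT brain and cluster 6 in the INJ brain. With each cell classed by its cluster the log2 ratio was 1.06 for Cxcr3 and 1.20 for Ccr2. Clusters 5 and 6 were both classed as alpha-beta T-like, so this left their mix in place, and its part was not tested. With cells thinned to 2000 UMIs the log2 ratio of Ccr2 was 0.68, under 2-fold.

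The T cells were also split by their Cd4 and Cd8a or Cd8b1 UMIs, a split that the design had not set out. In cells with Cd8 UMIs only, 214 in CT and 48 in INJ, Ccr2 was 31.8 and 162 CPM and Cxcr3 was 68.2 and 157 CPM. Cells with Cd4 UMIs only, 164 and 27 in number, had 83.8 and 103 CPM of Ccr2 and 76.5 and 158 CPM of Cxcr3. Cxcr3 was higher in the INJ brain in both subsets, while for Ccr2 the intervals of CT and INJ overlapped in the Cd4 but not in the Cd8 subset. In cells with neither, 121 in CT and 37 in INJ, the Ccr2 intervals overlapped too, at 98.95 and 154.4 CPM. Cxcr3 in these cells was 97.78 and 181.7 CPM. The Cd8 cells of INJ held 59 Ccr2 UMIs, and 1 alpha-beta T-like cell of the INJ brain, of a subset not recorded, held 26. Ccr1 in the Cd8 cells was 3.08 CPM in CT and 41.2 CPM in INJ, from 6 and 15 UMIs. How many cells carried the Cd8 values was not counted. Ccr9 in the CT brain was 79.0 CPM in the Cd8 cells and 22.8 CPM in the Cd4 cells.

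The remaining brain pairs were mostly carried by few cells. Ccr9 in gamma-delta T-like cells was 5.47 CPM in CT and 92.6 CPM in INJ of the brain, but all 28 INJ UMIs lay in 1 of 47 cells. Ccr7 in Lyve1+ and Lyve1- macrophage-like cells of the INJ brain was of the same kind, with 90.5% and 68.8% of its UMIs in 1 cell. Of the 5 lower pairs of the brain, Cxcr6 in Lyve1+ macrophage-like cells was 35.4 CPM in CT and 3.63 CPM in INJ, from 8 and 3 cells. The others were Cxcr3 (8.21 and 3.64 CPM) and Cxcr6 (6.80 and 2.67 CPM) in microglia-like cells, Ccr7 in Ly6C low monocyte-like cells (17.7 and 2.36 CPM, 4 and 3 cells) and Cx3cr1 in gamma-delta T-like cells (20.1 and 9.92 CPM, 22 and 3 UMIs).

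In the dura the higher pairs were spread over 5 receptors. Besides Ccr1 in Lyve1- macrophage-like cells, Ccr2 in Lyve1+ macrophage-like cells was 49.9 CPM in CT and 105 CPM in INJ (log2 ratio 1.07, 95% interval 0.80 to 1.35), in 29 of 217 and 95 of 422 cells, but 0.96 with clusters in place of gates. Ccr9 in ILC2-like cells was 26.5 and 72.0 CPM (1.44, 0.66 to 2.30), in 9 of 87 and 21 of 114 cells, but 0.61 with cells thinned to 2000 UMIs. In immature neutrophil-like cells, Ccr2 was 2.05 and 21.6 CPM (3.40, 2.54 to 4.39) and Cx3cr1 was 2.22 and 29.2 CPM (3.72, 2.90 to 4.66). With clusters in place of gates these log2 ratios were 0.27 for Ccr2 and 1.62 for Cx3cr1. A UMI was found in 28 and 25 of 223 INJ cells, and the Lyve1- macrophage list was 703 CPM in CT and 2746 CPM in INJ in the same class, with all 8 genes detected, and its part in both values was not tested. Cxcr3 in Ly6C hi monocyte-like cells was at 1.70 and 3.57 CPM, with an interval that held 0.

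The 3 lower pairs of the dura were small in cells. Ccr7 in cDC1-like cells was 72.5 CPM in CT and 26.1 CPM in INJ, from 3 and 2 cells, and 1 cell held 82.1% of the CT UMIs. Ccr7 in immature neutrophil-like cells was 3.25 and 0.569 CPM (19 and 3 UMIs), and Cxcr6 in Lyve1+ macrophage-like cells was 5.13 and 1.63 CPM (14 and 11 UMIs).

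The brain was then set against the dura in the CT libraries, to ask how the 2 tissues differ without injury. 74 pairs could be compared in 14 classes: 19 were higher in the brain, or 25.7% against 3.26% over all genes and classes, and 12 were lower, or 16.2% against 5.66%. In the library with the higher level, 4 of the 19 and 6 of the 12 had a UMI in fewer than 10 cells. Ccr1 was again the most frequent, with 6 of the 19. These included mature B-like cells, which should lack Ccr1, with 24 UMIs in the brain (10.7 CPM) and 8 in the dura. It was 168 CPM in brain and 54.4 CPM in dura cDC2-like cells (log2 ratio 1.63, 95% interval 1.36 to 1.90), and 282 and 121 CPM in Lyve1+ macrophage-like cells (1.23, 0.998 to 1.45), whose largest share lay in cluster 2 in the brain and in cluster 3 in the dura.

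Cxcr6 and Cxcr4 separated brain from dura NK and ILC1-like cells in opposite directions. Cxcr6 was 201 CPM in the CT brain and 45.1 CPM in the CT dura (log2 ratio 2.16, 95% interval 1.69 to 2.66), in 136 of 349 and 14 of 93 cells, and 113 and 38.1 CPM in the INJ libraries. Cxcr4 was 148 and 342 CPM in the CT libraries (−1.21, −1.42 to −0.99, but −0.93 with cells thinned to 2000 UMIs), and 124 and 378 CPM in the INJ libraries. The INJ values were not used in that comparison and showed the same order for both genes. Clusters 10 and 16 were both of NK and ILC1-like cells, and their mix differed between the tissues. Cluster 10 held 196 CT brain and 74 CT dura cells, and cluster 16 held 143 and 16. In the INJ brain and dura, cluster 10 held 105 and 65 cells and cluster 16 held 36 and 10. The part of this mix in both values was not tested. The gamma-delta T list, whose class is the highest for Cxcr6, was 493 CPM in the CT brain and 267 CPM in the CT dura in these NK and ILC1-like cells, with all 8 genes detected, and its part was not tested.

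Cxcr4 was lower in the brain in 2 more lymphocyte classes. It was 92.3 CPM in the brain and 245 CPM in the dura for alpha-beta T-like cells (log2 ratio −1.41, 95% interval −1.67 to −1.14), and 102 and 207 CPM for ILC2-like cells (−1.03, −1.55 to −0.53). Gamma-delta T-like cells had 102 and 152 CPM, under 2-fold. Mature B-like cells did not follow, with 327 and 296 CPM. Ccr7 and Ccr9 went the other way in alpha-beta T-like cells: Ccr7 was 281 CPM in the brain and 77.2 CPM in the dura (1.87, 1.47 to 2.29), and Ccr9 was 44.7 and 4.37 CPM, from 190 and 3 UMIs (3.36, 1.79 to 5.65). The largest share of the alpha-beta T-like class lay in cluster 5 in the CT brain and in cluster 6 in the CT dura, and that of the mature B-like class in clusters 8 and 25. With each cell classed by its cluster, the alpha-beta T-like log2 ratios were −1.20 for Cxcr4 and 4.95 for Ccr9, and Ccr7 also stayed past 2-fold. Clusters 5 and 6 were both classed as alpha-beta T-like, so this left their mix in place, and its part was not tested. In ILC2-like cells the log2 ratio of Cxcr4 by cluster was −0.86, under 2-fold.

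Ly6C low monocyte-like cells also differed between the tissues. Ccr2 was 164 CPM in the CT brain and 405 CPM in the CT dura (log2 ratio −1.31, 95% interval −1.60 to −1.01), and Ccr1 was 118 and 9.61 CPM, from 127 and 5 UMIs (3.62, 2.36 to 5.27). In the INJ libraries Ccr2 was 237 and 536 CPM and Ccr1 was 123 and 18.2 CPM, in the same order. The mature neutrophil list, whose class is the highest for Ccr1, reached 15460 CPM in the CT brain and 8180 CPM in the CT dura, 6.98 and 3.01% of its own-class level, with all 8 genes detected, and its part in the Ccr1 value was not tested. Immature neutrophil-like cells had 383 CPM of Ccr1 in the CT brain and 132 CPM in the CT dura (1.54, 1.38 to 1.70), in clusters that differed, the largest share lying in cluster 23 in the CT brain and in cluster 29 in the CT dura. With each cell classed by its cluster, Ccr2 and Ccr1 in Ly6C low monocyte-like cells of the CT libraries came under 2-fold, with log2 ratios of −0.84 and 0.94.

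Some pairs lay close to the 2-fold threshold. Cx3cr1 in microglia-like cells, 1.91-fold lower in INJ, and Ccr7 in brain alpha-beta T-like cells, 1.90-fold lower, stayed just outside, as did Ccr2 in dura granulocyte precursor-like cells, 1.96-fold higher. Just inside were Cx3cr1 in brain alpha-beta T-like cells, 2.06-fold higher, and Ccr2 in dura Lyve1+ macrophage-like cells, 2.10-fold higher.

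14 further chemokine receptor genes were read in the same way, and 13 were listed in any library. In the brain 9 of 34 pairs were 2-fold higher in INJ and 2 were lower, where 4.6 and 5.11% of pairs over all genes were. In the dura 4 of 37 were higher and 2 lower, beside 2.67 and 3.56% over all genes. Of 35 pairs in the CT libraries 11 were higher and 1 lower in the brain, beside 3.26 and 5.66%. Cxcr2, the main neutrophil receptor, was 1092 to 1256 CPM in mature neutrophil-like cells of the 4 libraries, and Cxcr1 there was 9.2 and 37.6 CPM in the CT and INJ brain and 9.9 and 38.8 CPM in the dura. Xcr1 was read at 173 to 287 CPM in cDC1-like cells, its known carrier.

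Of 18 ligand genes, 17 were listed in any library. In the brain 41 of 132 pairs of ligand and class were 2-fold higher in INJ and 13 lower, against 4.6 and 5.11% over all genes, and in the dura 35 of 153 were higher and 24 lower, against 2.67 and 3.56%. Between the CT libraries 36 of 142 were higher and 38 lower in the brain, against 3.26 and 5.66%. How many of these pairs, or of the further receptor pairs, rested on few cells was not counted. The Ccr2 ligand Ccl2 was 89.1 CPM in CT and 420 CPM in INJ for microglia-like cells, and 2995 and 6331 CPM for mast cell-like cells of the dura, which had 7.28 CPM of Cxcr4 or less and 56.0 to 98.3 CPM of Cx3cr1. Ccl9, a Ccr1 ligand, was 245 and 724 CPM in dura Lyve1+ macrophage-like cells. Cxcl9, a Cxcr3 ligand, was 547 CPM in CT and 4.8 CPM in INJ for dura cDC1-like cells, which numbered 44 and 55. Over all kept cells of the dura it was 28.7 CPM in CT and 22.5 CPM in INJ, with a UMI in 91 and 35 cells. Cxcl12, Ccl19, Ccl21a and Cx3cl1, the ligands of Cxcr4, Ccr7 and Cx3cr1 that stromal, endothelial or neural cells make, were at 7.75 CPM or less in each of the 63 groups.

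The genes with patterns most like each receptor were taken by Pearson's r of log2(CPM + 10) over the 63 groups, among 7019 genes, and marker genes of the classes were left out. For Cxcr6 they included Icos and F2r (r = 0.959 and 0.957), for Cxcr5 they were Cr2, Scd1 and Bend5 (0.950 to 0.914) and for Cx3cr1 they included Abhd12 and Csf1r (0.921 and 0.914). Ccr1 was nearest to Hacd4, Siglece and its ligand Ccl6 (0.857 to 0.843), and Ccr2 to S100a4, Capn2 and Ahnak (0.858 to 0.785). For Ccr7 they were Cd200, H2-Eb2 and Trim7 (0.790 to 0.756), for Ccr9 Atp2a1, Sh3bgr and Havcr1 (0.816 to 0.799) and for Cxcr3 Cd226, Cd28 and Ctsw (0.838 to 0.784). Cxcr4 had no close partner, the highest being Tpm4, Ttc7 and Cytip at 0.683 to 0.678. Among the receptors themselves, Ccr7 and Cxcr5 had an r of 0.744 and Ccr1 and Cxcr6 one of −0.441. The groups share libraries and classes, so these values are a description.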

How the data were processed

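CD45+ cells of brain and dura mater were measured by 10X Chromium 3' single-cell RNA-seq in 4 libraries, 1 per group. Per the labels and the submitters' processing notes, reads were processed with Cell Ranger 3.1.0 on mm10 and Seurat 3.1.0, and the deposited values are natural log values, ln(1 + UMIs of the gene / UMIs of the cell × 10000), computed by the authors. The design had assumed UMI counts. These were recovered from the deposited log values and came out whole in every cell, with a largest deviation of 9.82e-11.

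Barcodes with 1000 to 6000 genes and under 7% mitochondrial UMIs were kept. The automatic Scrublet threshold marked 0 to 0.0634% of cells and was taken not to have worked, so the highest-scoring cells were removed at 0.8% per 1000 barcodes (743 cells). A cell entered a class with at least 3 of its markers and a score 0.2 above the next class. The best score of a class of another lineage also had to stay under 0.5 of the top score. 427 cells had too few markers, 1094 too small a margin and 1921 too high a score of another lineage. CPM are the summed UMIs of a gene per 1000000 UMIs of the class. A pair was compared with 20 UMIs in both libraries together and called at 2-fold, with 95% exact intervals, and the ratio computation was tested on simulated data. Shares were also taken after thinning to 2000 UMIs. Kept cells held 37522305 to 72439909 UMIs per library. The receptors, the further receptor and ligand lists and the 3 most alike genes, among genes reaching 50 CPM, were the named genes, some of which are not reported here, and the members and lists were chosen with earlier results of these data known. The alternatives were other filters, doublets kept, clusters in place of gates, thinning, the mean over cells and other thresholds. 2 further ones, a minimum of 20 CPM and of 10 cells with a UMI, were chosen after seeing the data. Python 3.11.15, NumPy 2.4.6, SciPy 1.17.1, pandas 2.3.3, scanpy 1.11.5, igraph 0.11.9 and matplotlib 3.10.9 were used.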

Additional observations from a re-analysis of the deposited data

Results flagged for a closer look

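In 4 pairs of receptor and class the INJ library lay below CT in one tissue and above it in the other, with a 95% interval that held no 0 in both tissues. The share of all genes and classes that meet this rule was not computed, so the count of 4 is a description only. The difference between the tissues was not tested, since each group was 1 library. Ccr2 in Lyve1- macrophage-like cells had a log2 ratio of INJ over CT of −0.15 in the brain and 0.36 in the dura, and Ccr2 in cDC1-like cells of −0.46 and 0.27. For Ccr1 in immature neutrophil-like cells the values were −0.70 in the brain and 0.16 in the dura, and the largest share of this class in the CT brain lay in cluster 23, a cluster of mature neutrophil-like cells, against cluster 29 in the other 3 libraries. Ccr7 in alpha-beta T-like cells gave −0.93 in the brain and 0.72 in the dura, with the largest share of the class in cluster 5 in the CT brain and in cluster 6 in the other 3 libraries. The dura value rested on few cells, with 53 UMIs in 19 of 77 CT cells and 57 UMIs in 11 of 52 INJ cells. In the INJ dura 3 cells held 50.9% of these UMIs.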

How the results depend on the processing

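No paired analysis was possible because each group was 1 library. In the brain 12 pairs were at least 2-fold higher in INJ, and this became 7 with cells thinned to 2000 UMIs, 7 with the mean over cells and 7 with at least 10 cells holding a UMI. The 5 lower pairs became 8 with doublets kept, 9 with clusters in place of gates, 0 thinned, 3 with the mean over cells, 2 with at least 50 UMIs, 9 with at least 10 UMIs, 14 past 1.5-fold, 2 with at least 20 CPM and 1 with at least 10 cells. In the dura the 6 higher pairs became 3 thinned, 10 with at least 10 UMIs and 14 past 1.5-fold, and the 3 lower became 6 with no filter, 6 with doublets kept, 9 with clusters, 1 thinned, 1 with the mean over cells, 1 with at least 50 UMIs, 8 with at least 10 UMIs, 9 past 1.5-fold, 1 with at least 20 CPM and 0 with at least 10 cells. For CT brain over dura the 19 higher became 8 thinned and 29 past 1.5-fold, and the 12 lower became 5 with clusters, 2 thinned, 7 with at least 50 UMIs and 6 with at least 10 cells. Thinning left 51, 48 and 50 pairs to compare. Otherwise the cause was not tested. The share over all genes was taken under the main settings only, so the alternative counts have no such share beside them. The highest class changed for 1 receptor, Cxcr3, leaving 8 of 9 the same with clusters, thinned and with the mean over cells.

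The Ccr2 log2 ratio of infiltrating macrophage-like over Ly6C hi monocyte-like cells moved from −4.00 to −3.84 with no filter, −4.18 with clusters, −3.64 thinned and −3.78 with the mean over cells. That of Cx3cr1 in Ly6C low over Ly6C hi cells moved to 1.52 with clusters. Ccr7 in migratory DC-like over cDC2-like cells moved to 5.63 with no filter, 5.38 with clusters and 6.83 thinned, Cxcr5 in B cells to 4.04 with clusters, and Cxcr4 in neutrophils to 1.75 with clusters and 2.20 with the mean over cells. Over 57 called pairs, 389 alternative values were computed: 321 stayed within the counting interval, 56 moved and 12 reversed. In the brain the log2 ratio of INJ over CT reversed with clusters for Ccr7 in Lyve1+ macrophage-like cells (−5.88), Ccr1 in NK and ILC1-like (−0.28) and alpha-beta T-like cells (−0.63) and Cx3cr1 in gamma-delta T-like cells (0.92), and thinned for Ccr7 in Lyve1- macrophage-like cells (−1.07). In the dura Cxcr6 in Lyve1+ macrophage-like cells reversed with clusters (2.83). For CT brain over dura the reversals were Ccr2 in immature neutrophil-like (−0.91) and Ccr1 in NK and ILC1-like cells (1.21) with clusters, Cxcr4 in cDC1-like (−0.16) and Ccr1 in gamma-delta T-like cells (0.19) thinned, and Cx3cr1 in gamma-delta T-like cells with no filter (0.049) and thinned (0.34).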
